A study of Mus musculus with 10 samples.

Results

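The genes described here are 39 autophagy genes, chosen by name as members of the machinery that starts, builds and loads the autophagosome. They were followed in melanoma tumours of male mice, 5 tumours labelled exercise and 5 labelled non-exercise, each measured on 1 Affymetrix whole-transcript array. A member was taken from the probe sets that the platform table pairs with that single symbol. Of the 39 genes, 38 had such a probe set, 42 probe sets in all of 35556 on the array, and Optn, which encodes the cargo receptor optineurin, was not analysed here. The comparison asks which transcripts of the pathway differ between tumours of exercised and non-exercised mice. The series title names voluntary exercise, while the sources used here give neither the strain and age of the mice, nor the source of the melanoma cells, nor the form and length of the exercise. Each title carries its own number, used here as the array number, but whether each number stands for its own mouse is not stated. The p-values therefore rest on the spread among these tumours, which may be technical. All 10 melanocytic markers were among the brighter genes of these arrays, with mean levels between percentile 95.4 (Tyr) and 99.9 (Dct) of all genes.

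Macroautophagy encloses cytoplasm in a double membrane, the phagophore, which closes into the autophagosome and fuses with the lysosome. The ULK kinase complex receives signals from the nutrient sensors mTORC1 and AMPK and starts the process, and a class III PI3-kinase complex built on VPS34 and Beclin 1 then marks the growing membrane with the lipid PI3P. Proteins that bind PI3P and proteins that move lipid extend the membrane. A pair of ubiquitin-like conjugation systems attach LC3 and GABARAP proteins to it, and receptors such as p62 bring in cargo. In tumours the pathway is known for supplying nutrients under stress and for removing damaged proteins and organelles. Much of its regulation takes place on proteins, by phosphorylation and lipid conjugation, which transcript levels do not measure.

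Levels are log2 values after quantile normalization, and a change is the exercise mean minus the non-exercise mean with its standard error (SE) after ±. A gene was called when its limma adjusted p (Benjamini-Hochberg over all 19938 genes) was under 0.05. Across all genes 6.35% were higher and 10.6% lower by this rule. The groups did not overlap, with exercise higher, for 3.74% of all genes, and with exercise lower for 8.33%. Across genes, exercise arrays correlated with each other at 0.976 to 0.990 and non-exercise arrays at 0.987 to 0.996. Exercise arrays 306, 309 and 310 held hepatocyte transcripts, with marker scores (the mean centred log2 level of 13 measured genes) of 1.65, 1.66 and 1.03, against -0.76 to -0.32 in the other 7 arrays. Macrophage and monocyte markers were higher with exercise for 11 of 12 genes. In whole-tumour RNA, fewer cells of a type and less RNA per cell cannot be told apart.

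Autophagy transcripts were more often lower than higher in the exercise tumours. Of the 38 measured genes 11 fell, 2 rose and 25 did not pass. The lower genes are 28.9% of the members, beside 10.6% of all genes, and the higher genes are 5.26%, beside 6.35%. The median change was -0.13 over the members and -0.02 over all genes, and 26 of 38 members (68.4%) had a negative change, beside 57.1% of all genes. Atg101 was the only member to change by more than 2-fold, and the other called members changed by 0.22 to 0.59 on the log2 scale. Exercise arrays lay wholly below non-exercise arrays for 7 of the 38 members, beside 8.33% of all genes, and wholly above for 2, beside 3.74%. These were 7 of the 11 lower genes and both higher genes. Such separation is common among called genes, since over all genes 1660 lay wholly below and 2118 were called lower. When genes in the dimmest 25% were left out before the fit, all 38 members stayed, 11 were lower, and the share of all genes called lower was 14.9%. The count of lower members was 7 without non-exercise array 326, beside 7.2% of all genes. Without any other 1 array it was between 8 and 13, beside 7.43% to 11.7% of all genes. Without the 3 exercise arrays with hepatocyte transcripts it was 11, of which 10 were lower in the full set, beside 8.09% of all genes. Fits without those 3 arrays, here and below, kept only exercise arrays 300 and 301. Array 300 was the lowest of its group for 17 of the 38 members. The kept count therefore leans on array 300, and calls lost in these fits may reflect the smaller group. After centring the arrays on their medians in place of quantile normalization, 16 members were lower and none higher, and over all genes 3076 were lower and 938 higher, against 2118 and 1266.

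**Figure D1:**
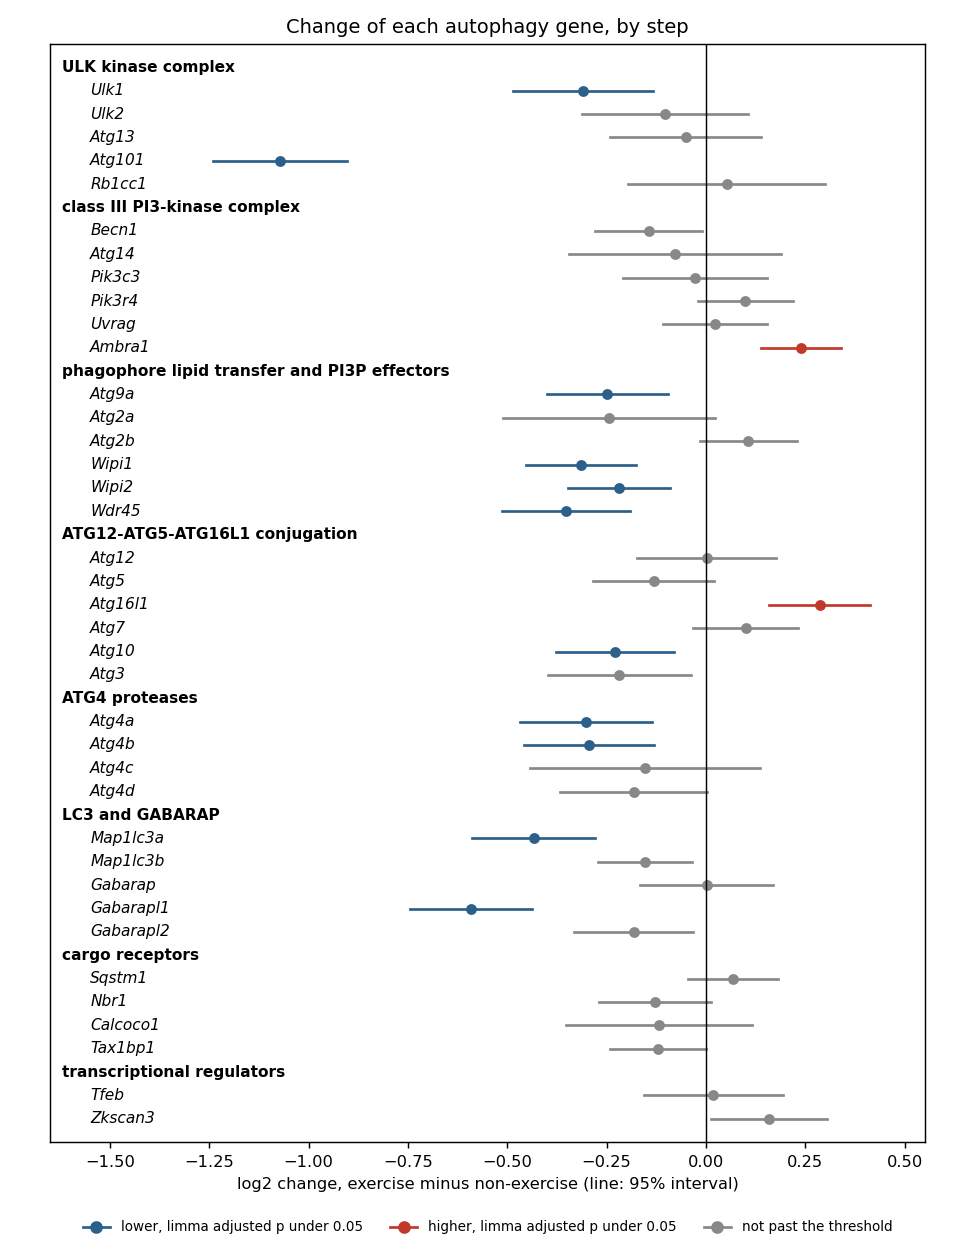
Log2 change (x axis, exercise minus non-exercise) of each of the 38 measured autophagy genes, grouped by step of the pathway, with its 95% interval as a line. Blue marks the 11 genes lower and red the 2 genes higher at a limma adjusted p under 0.05, and grey the 25 that did not pass. Atg101, at -1.07, lies apart from the others, which span -0.59 to 0.29.

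Promoter windows were read for the members because several of them were lower together. RefSeq sequences of GRCm38.p6, cut to the 250 bases before the annotated start, were at hand for 32 of the 39 members. Searched on both strands, CACGTG (the E-box) was found in the windows of Atg3, Atg5 and Atg7, which is 3 of the 38 windows of these members (7.89%), beside 6.02% of all 32851 windows. TCACGTGA, the core of the CLEAR element recognised by TFEB and its relatives, contains the E-box and was found in the window of Atg3 alone (2.63% of the members' windows), beside 0.785% of all windows. TGATGNAA, the core of the CARE element recognised by ATF4, was in 0 of these members' windows and in 3.45% of all windows. None of the 10 lower members with a window held any of these motifs, which says only that these letters are not in these windows. Shown are the windows of Atg101 and Gabarapl1, the members with the largest decreases, and of Atg3, which held E-box and CLEAR matches. Atg3 had a change of -0.22 that did not pass (limma adjusted p = 0.0913). That is close in size to the called decreases of Wipi2 (-0.22) and Atg10 (-0.23), so Atg3 is not an unchanged contrast. Capitals mark the E-box and CLEAR matches, whose first bases lie 94 and 72 bases before the start of Atg3, and the windows without capitals held no match. Positions are chr15:101284051-101284300 for Atg101 (plus strand), chr6:129532942-129533191 for Gabarapl1 (plus strand) and chr16:45158579-45158828 for Atg3 (plus strand), each printed 5′ to 3′.
Atg101: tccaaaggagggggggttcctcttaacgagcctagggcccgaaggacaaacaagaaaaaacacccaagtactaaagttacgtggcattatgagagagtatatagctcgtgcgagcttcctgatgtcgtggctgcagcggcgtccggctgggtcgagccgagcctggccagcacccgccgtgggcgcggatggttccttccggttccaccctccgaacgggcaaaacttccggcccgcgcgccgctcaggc
Gabarapl1: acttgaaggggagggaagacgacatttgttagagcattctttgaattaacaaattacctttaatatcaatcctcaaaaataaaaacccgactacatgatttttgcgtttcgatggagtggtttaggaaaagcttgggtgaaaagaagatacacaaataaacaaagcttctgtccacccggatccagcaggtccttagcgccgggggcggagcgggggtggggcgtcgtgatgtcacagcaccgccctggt
Atg3: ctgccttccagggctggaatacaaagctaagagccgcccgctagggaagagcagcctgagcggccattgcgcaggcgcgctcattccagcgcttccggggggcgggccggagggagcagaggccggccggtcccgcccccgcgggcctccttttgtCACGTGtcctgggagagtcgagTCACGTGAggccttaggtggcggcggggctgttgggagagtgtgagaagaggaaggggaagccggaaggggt

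In the ULK kinase complex, 2 of 5 genes fell (40%, beside 10.6% of all genes) and none rose. The decreases were in the subunit Atg101 and the kinase Ulk1. Atg101 encodes the HORMA-domain partner that binds and stabilises ATG13. It lay at 9.16, 9.45, 9.50, 9.29 and 9.27 in exercise arrays 300, 301, 306, 309 and 310, and at 10.37, 10.55, 10.48, 10.30 and 10.33 in non-exercise arrays 326, 327, 329, 330 and 331, an order of arrays kept in all such lists. The groups lay far apart beside the spread within each, with array 300 the lowest. The means were 9.34 ± 0.14 and 10.41 ± 0.10 (SD, n = 5 each), and the change was -1.07 ± 0.08, or 2.10-fold lower (limma adjusted p = 8.59e-06, and 1.10e-05 to 9.46e-05 leaving out 1 array). Among all genes it ranked 4 by p and held the 3rd largest called decrease. Atg101 was the one member still called with the macrophage score as covariate (-0.98, limma adjusted p = 0.0104), a fit in which only 25 genes were lower and 12 higher over all 19938.

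Ulk1 encodes the kinase that phosphorylates the other parts of the initiation machinery. Its levels were 9.23, 9.57, 9.64, 9.46 and 9.33 in the exercise arrays and 9.78, 9.71, 9.66, 9.82 and 9.80 in the non-exercise arrays. The groups did not overlap, but exercise array 306 lay just below non-exercise array 329. Ulk1 fell by 0.31 ± 0.08 on the log2 scale (limma adjusted p = 0.0194), and did not pass without non-exercise array 326 or 330 (limma adjusted p 0.00892 to 0.0510 leaving out 1 array). Its paralog Ulk2 changed by -0.10 (95% interval -0.31 to 0.11), and the difference between the changes of Ulk1 and Ulk2, -0.21, did not pass (two-sided exact permutation p = 0.167, adjusted p = 0.292 over 21 pairs within families). Neither scaffold of the complex passed, with Atg13 at -0.05 (95% interval -0.24 to 0.14) and Rb1cc1, which encodes FIP200, at 0.05 (95% interval -0.20 to 0.30).

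Of the 6 genes of the class III PI3-kinase complex, Ambra1 rose and the other 5 did not pass. Ambra1 encodes a scaffold that binds Beclin 1 and links the complex to ubiquitin ligases. It lay at 11.46, 11.50, 11.63, 11.55 and 11.58 in the exercise arrays and at 11.35, 11.26, 11.32, 11.29 and 11.30 in the non-exercise arrays. All exercise arrays were higher, with the 3 hepatocyte-containing arrays the highest. The change was 0.24 ± 0.05 (limma adjusted p = 0.00375). Without those 3 arrays the change was 0.18 and did not pass (limma adjusted p = 0.0625), and after centring on the medians it was 0.15 and did not pass (limma adjusted p = 0.0847).

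Becn1, which encodes Beclin 1, the core regulatory subunit, did not pass. Its exercise levels were 11.11, 11.08, 10.88, 11.11 and 10.87, and its non-exercise levels 11.12, 11.15, 11.20, 11.21 and 11.09. Exercise arrays 306 and 310 were the lowest, array 301 lay just below the non-exercise range, and arrays 300 and 309 lay within it. The change was -0.14 (95% interval -0.28 to -0.01, limma adjusted p = 0.138), and it passed after centring on the medians (-0.22, limma adjusted p = 0.0172). Arrays 306 and 310 are among the 3 with hepatocyte transcripts, and without those 3 Becn1 was at -0.061 (limma adjusted p = 0.593). Pik3c3, the lipid kinase VPS34, had a change of -0.03 (95% interval -0.21 to 0.15), and Pik3r4, its regulatory partner VPS15, of 0.10 (95% interval -0.02 to 0.22). Atg14 and Uvrag, alternative subunits that direct the complex to autophagosome formation or to later endosomal steps, had changes of -0.08 and 0.02.

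Genes for membrane growth and PI3P binding held the largest share of decreases, 4 of 6 (66.7%), beside 10.6% of all genes. None was higher. No test of one step against another was made, and the calls of Wipi2 and Atg9a were each lost when certain single arrays were left out. Wipi1, Wipi2 and Wdr45 encode beta-propeller proteins that bind PI3P on the phagophore, and all 3 fell. Wdr45 lay at 10.48, 10.85, 10.84, 10.73 and 10.54 in the exercise arrays and at 11.07, 11.09, 11.07, 11.02 and 10.97 in the non-exercise arrays. The groups were apart, and the exercise arrays varied more (SD 0.17 against 0.05, n = 5 each), with arrays 300 and 310 the lowest. The change was -0.35 ± 0.08 (limma adjusted p = 0.00578).

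Wipi1 lay at 9.58, 9.71, 9.71, 9.61 and 9.70 in the exercise arrays and at 10.05, 10.02, 9.96, 9.82 and 10.02 in the non-exercise arrays. Every exercise array was below every non-exercise array, the nearest being array 330. Wipi1 fell by 0.32 ± 0.06 on the log2 scale (limma adjusted p = 0.00484). Wipi2, whose product recruits ATG16L1, lay at 11.29, 11.49, 11.57, 11.49 and 11.31 in the exercise arrays and at 11.66, 11.68, 11.70, 11.59 and 11.62 in the non-exercise arrays. The groups touched without overlapping, since array 306 lay just below array 330. The change was -0.22 ± 0.06 (limma adjusted p = 0.0218), and it did not pass without non-exercise array 326, 327 or 329 (limma adjusted p 0.00984 to 0.0588 leaving out 1 array).

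Atg9a encodes the scramblase of the vesicles that seed the phagophore. It lay at 10.57, 10.77, 10.98, 10.74 and 10.77 in the exercise arrays and at 11.12, 10.96, 10.93, 11.09 and 10.97 in the non-exercise arrays. Exercise array 306 lay among the non-exercise arrays, and array 300 was the lowest. The change was -0.25 ± 0.07 (limma adjusted p = 0.0285), and the call was lost when array 300, 309, 326 or 330 was left out (limma adjusted p 0.00683 to 0.0826 leaving out 1 array). Of the paralogous lipid transfer proteins, Atg2a had a change of -0.24 (95% interval -0.51 to 0.02) and Atg2b of 0.11 (95% interval -0.02 to 0.23), neither past the threshold. Atg2a passed without exercise array 306 (-0.34, limma adjusted p = 0.0499) and without the 3 arrays with hepatocyte transcripts (-0.44, limma adjusted p = 0.0460). It was at -0.14 (limma adjusted p = 0.463) without exercise array 300 and at -0.11 (limma adjusted p = 0.572) with the melanocytic score as covariate. The difference between their changes, -0.35, had an exact permutation p of 0.0397 and an adjusted p of 0.104 over the 21 pairs.

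Of the genes of the ATG12 and ATG5 conjugation system, Atg16l1 rose, Atg10 fell and 4 of 6 did not pass. Atg16l1 encodes the protein that carries the ATG12-ATG5 conjugate to the membrane. Its levels were 10.44, 10.49, 10.49, 10.32 and 10.50 in the exercise arrays and 10.14, 10.25, 10.18, 10.18 and 10.07 in the non-exercise arrays. The groups did not overlap, and array 309 was the nearest to the non-exercise range. The change was 0.29 ± 0.06 (limma adjusted p = 0.00500), and after centring on the medians it was 0.21 and did not pass (limma adjusted p = 0.0558).

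Atg10, the E2-like enzyme that joins ATG12 to ATG5, lay at 9.75, 9.71, 9.98, 9.78 and 9.76 in the exercise arrays and at 9.99, 10.10, 10.11, 10.02 and 9.91 in the non-exercise arrays. Exercise array 306 stood above the other 4 and above non-exercise array 331. The change was -0.23 ± 0.07 (limma adjusted p = 0.0359), and it passed only without array 306 or 331 in the 10 fits that left out 1 array (limma adjusted p 0.0117 to 0.0960).

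The shared E1-like enzyme Atg7 and the conjugate's core Atg5 did not pass. Atg7 lay at 10.82, 10.71, 10.93, 10.90 and 10.74 in the exercise arrays and at 10.71, 10.62, 10.70, 10.78 and 10.80 in the non-exercise arrays, a change of 0.10 (95% interval -0.03 to 0.23). Atg5 lay at 9.86, 9.72, 9.58, 9.80 and 9.69 in the exercise arrays and at 9.85, 9.94, 9.95, 9.82 and 9.74 in the non-exercise arrays, a change of -0.13 (95% interval -0.28 to 0.02). For both genes the groups overlapped. Atg12, the ubiquitin-like protein itself, had a change of 0.0013 (95% interval -0.17 to 0.18). Atg3, the E2-like enzyme that attaches lipid to LC3, was at -0.22 (95% interval -0.40 to -0.04, limma adjusted p = 0.0913), and passed without exercise array 300 (-0.27, limma adjusted p = 0.0390), but was at -0.12 (limma adjusted p = 0.537) without the 3 arrays with hepatocyte transcripts.

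ATG4 proteases trim new LC3 and GABARAP proteins and release them from membrane, and Atg4a and Atg4b fell while Atg4c and Atg4d did not pass. Atg4b, known as the most active of them towards LC3, lay at 9.87, 10.02, 10.16, 9.87 and 9.77 in the exercise arrays and at 10.24, 10.31, 10.30, 10.18 and 10.13 in the non-exercise arrays. Exercise array 306 alone reached into the non-exercise range. The change was -0.29 ± 0.08 (limma adjusted p = 0.0174), and all 10 fits that left out 1 array kept the call (limma adjusted p 0.00480 to 0.0493), while with the hepatocyte score as covariate Atg4b was at -0.30 and did not pass (limma adjusted p = 0.0699). Atg4a lay at 10.26, 10.04, 10.16, 10.13 and 10.003 in the exercise arrays and at 10.38, 10.61, 10.48, 10.43 and 10.21 in the non-exercise arrays. Exercise array 300 lay above non-exercise array 331, and the other 4 exercise arrays lay below all non-exercise arrays. The change was -0.30 ± 0.08 (limma adjusted p = 0.0162), and without the 3 arrays with hepatocyte transcripts it was -0.27 and did not pass (limma adjusted p = 0.106).

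Atg4a has 2 probe sets listed with the same transcripts, with changes of -0.30 each, so they cannot be counted as independent measures. Atg4c had a change of -0.15 (95% interval -0.44 to 0.14) and Atg4d of -0.18 (95% interval -0.37 to 0.0028). None of the 6 pairs within this family passed for a difference between their changes (exact permutation p 0.214 to 0.929), which does not show that they changed alike.

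The LC3 and GABARAP genes, which encode the ubiquitin-like proteins attached to the autophagosome membrane, did not move together. Gabarapl1 and Map1lc3a fell, Map1lc3b and Gabarapl2 had smaller negative changes that did not pass, and Gabarap had a change of 0.0020 (95% interval -0.17 to 0.17). Gabarapl1 lay at 10.66, 11.06, 10.79, 10.87 and 10.95 in the exercise arrays and at 11.53, 11.48, 11.43, 11.35 and 11.50 in the non-exercise arrays. The highest exercise array, 301, lay well below the lowest non-exercise array, 330. The change was -0.59 ± 0.07, or 1.51-fold lower (limma adjusted p = 0.000209, and 7.97e-05 to 0.00114 leaving out 1 array).

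Map1lc3a encodes LC3A, the less studied sister of LC3B. It lay at 8.76, 8.81, 8.94, 8.90 and 8.72 in the exercise arrays and at 9.31, 9.31, 9.32, 9.14 and 9.23 in the non-exercise arrays. The groups did not overlap, with exercise array 306 and non-exercise array 330 the nearest. The change was -0.43 ± 0.07, or 1.35-fold lower (limma adjusted p = 0.00132). Map1lc3b encodes LC3B, the usual protein marker of autophagosomes, and lay at 12.13, 12.19, 12.18, 12.23 and 11.99 in the exercise arrays and at 12.30, 12.34, 12.39, 12.31 and 12.16 in the non-exercise arrays. Non-exercise array 331 lay among the exercise arrays and the other 4 lay above them. The change was -0.15 ± 0.06 (limma adjusted p = 0.0712), and it passed without array 331 (-0.19, limma adjusted p = 0.0265). Gabarapl2, also known as GATE-16, was at -0.18 ± 0.07 (limma adjusted p = 0.0900), and passed without array 331 (-0.22, limma adjusted p = 0.0372). With the macrophage score as covariate Map1lc3b was at -0.098 and Gabarapl2 at -0.12, neither past the threshold.

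Within-array differences between family members were compared by exact permutation over all 252 splits of the arrays, for 21 pairs in 5 families chosen after the values were seen. Of these, 7 pairs passed at an adjusted p under 0.05 over the 21, and 6 of the 7 were LC3 and GABARAP pairs. Gabarapl1 fell more than Gabarap, by 0.59 on the log2 scale, than Map1lc3b, by 0.44, and than Gabarapl2, by 0.41 (exact permutation p = 0.00794 each, the smallest that 252 splits allow, adjusted p = 0.0333). Map1lc3a fell more than Map1lc3b, by 0.28, and than Gabarap, by 0.44 (exact permutation p = 0.00794 and adjusted p = 0.0333 each), and more than Gabarapl2, by 0.25 (exact permutation p = 0.0159, adjusted p = 0.0476). Gabarapl1 and Map1lc3a did not differ past the threshold (0.16, exact permutation p = 0.143). In the WIPI family Wdr45 fell more than Wipi2, by 0.13 (exact permutation p = 0.0159, adjusted p = 0.0476). Without non-exercise array 326, 327, 329 or 330 none of the 21 pairs passed, with the lowest adjusted p at 0.0556. Without the 3 arrays with hepatocyte transcripts the smallest p that the splits allow is 0.0476, too large for this comparison to say anything about the pairs. On the table as deposited 4 of the 7 remained, and those lost were Map1lc3a minus Gabarap, Map1lc3a minus Gabarapl2 and Wipi2 minus Wdr45 (adjusted p = 0.0833, 0.167 and 0.0667).

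**Figure D2:**
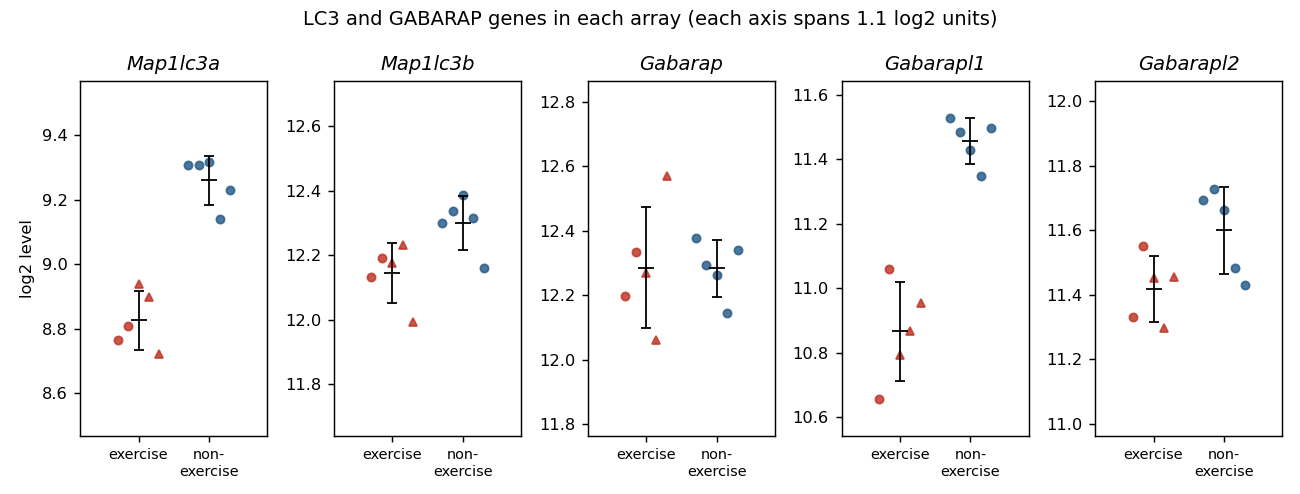
Log2 level (y axis, the same span in each panel but not the same start) of the 5 LC3 and GABARAP genes in each array, exercise in red and non-exercise in blue, with triangles for the exercise arrays with hepatocyte transcripts and black bars for mean and SD (n = 5 each). The groups are apart for Map1lc3a and Gabarapl1 and overlap for Map1lc3b, Gabarap and Gabarapl2.

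None of the 4 measured cargo receptors passed in limma, and 1 of them, Tax1bp1, had an unadjusted p under 0.05. Sqstm1 encodes p62, which links ubiquitinated cargo to LC3, and lay at 13.08, 13.17, 13.03, 13.04 and 13.00 in the exercise arrays and at 12.96, 12.89, 12.98, 12.99 and 13.18 in the non-exercise arrays. The groups overlapped, since non-exercise array 331 was as high as exercise array 301. The change was 0.07 (95% interval -0.05 to 0.18, limma adjusted p = 0.471). Nbr1, a receptor related to p62, Tax1bp1, which binds ubiquitinated aggregates, and Calcoco1, a receptor for the endoplasmic reticulum, had changes of -0.13, -0.12 and -0.12 (limma adjusted p = 0.218, 0.169 and 0.549).

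Neither transcriptional regulator of the pathway passed in limma, and 1 of the 2, Zkscan3, had an unadjusted p under 0.05. Tfeb encodes the activator of lysosome and autophagy genes, and lay at 10.07, 10.23, 10.48, 10.39 and 10.15 in the exercise arrays and at 10.36, 10.15, 10.17, 10.31 and 10.23 in the non-exercise arrays. The groups overlapped throughout, and the change was 0.02 (95% interval -0.16 to 0.19). Zkscan3, described as a repressor of the same genes, had a change of 0.16 (95% interval 0.01 to 0.31, limma adjusted p = 0.135).

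Nearest to the threshold, Atg9a (limma adjusted p = 0.0285) and Atg10 (limma adjusted p = 0.0359) were just inside, and Map1lc3b (limma adjusted p = 0.0712) and Gabarapl2 (limma adjusted p = 0.0900) just outside. Map1lc3b and Gabarapl2 each have 2 probe sets, with similar changes (-0.15 and -0.16, and -0.18 and -0.17), and none of the 4 passed. The unused Gabarapl2 probe set was much dimmer, with means of 7.66 (exercise) and 7.83 (non-exercise), against 11.42 and 11.60 for the used probe set. Its change was also less precise (-0.17 ± 0.10, against -0.18 ± 0.07), so it adds little as a second measure. The pair for Map1lc3b is listed with nearly the same transcripts, so it gives no independent second measure. Atg2b has 2 probe sets with changes of 0.11 and 0.14.

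The members' levels varied between arrays of the same group in a shared way. Exercise array 300 was the lowest of its group for 17 of 38 genes and array 306 the highest for 17. Among the non-exercise arrays, 326 was the highest for 13 and 331 the lowest for 15. The median centred level of the members was -0.13, -0.02, 0.02, -0.13 and -0.05 in the exercise arrays and 0.11, 0.11, 0.08, 0.02 and 0.0043 in the non-exercise arrays. Exercise array 306 thus lay within the non-exercise range and the other 4 below it. Macrophage and monocyte scores were 0.54, -0.19, 0.18, 0.97 and 1.01 in the exercise arrays and -0.86 to -0.29 in the non-exercise arrays, so that arrays 300, 309 and 310, the lowest for the members, held the 3 highest macrophage scores. The match was not particular to macrophages. In that order, the same 3 arrays held the 3 highest fibroblast (0.68, 0.59 and 1.09), NK cell (0.17, 0.38 and 0.36) and endothelial (0.29, 0.27 and 0.38) scores. Fibroblast scores ran from -0.25 to 1.09 with exercise and from -0.84 to -0.01 without, with 6 of 8 markers higher. NK cell scores ran from -0.19 to 0.38 and from -0.24 to -0.13, T cell scores from -0.31 to 0.47 and from -0.28 to -0.03, adipocyte scores from -0.76 to 1.19 and from -0.57 to 0.38, and skeletal muscle scores from -1.09 to 1.41 and from -0.56 to 0.19. Of these markers 2 of 9 NK cell genes were higher, and 0 of 8 T cell, 0 of 8 adipocyte and 0 of 9 skeletal muscle genes passed in limma, with 3, 1 and 0 at an unadjusted p under 0.05. Endothelial scores overlapped, from -0.34 to 0.38 with exercise and from -0.27 to 0.16 without. Of 8 endothelial markers 7 had a positive change, but 0 were called higher and 1, Cldn5, was lower (-0.50, limma adjusted p = 0.0294). Melanocytic scores overlapped, from -0.12 to 0.07 and from -0.07 to 0.08, with 0 of 10 markers past the limma threshold and 2 (Tyr and Sox10) at an unadjusted p under 0.05.

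With the macrophage and monocyte score as a covariate, 1 of the 11 lower members stayed lower and neither higher member passed. Over all genes 0.125% were lower and 0.0602% higher in that fit. Called members kept their direction in that fit. Gabarapl1 was at -0.56 (limma adjusted p = 0.0730), Map1lc3a at -0.44 (limma adjusted p = 0.155), Wipi1 at -0.32 (limma adjusted p = 0.283) and Atg4a at -0.33 (limma adjusted p = 0.355), close to their values without the covariate. Ulk1 (-0.11), Wdr45 (-0.18), Atg4b (-0.13) and Atg9a (-0.13) were nearer to 0. The score differed between the groups by 1.0 in the mean, with all exercise arrays above all non-exercise arrays, so group and macrophage level cannot be told apart well in this design. The part of other cell types in the members' changes was not tested further. With the hepatocyte score as covariate 9 members were lower, beside 6.75% of all genes, with Atg4a and Atg4b lost. With the melanocytic score 9 were lower, beside 8.39% of all genes. Of these 8 were among the 11, with Wipi2, Atg9a and Atg10 lost.

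**Figure D3:**
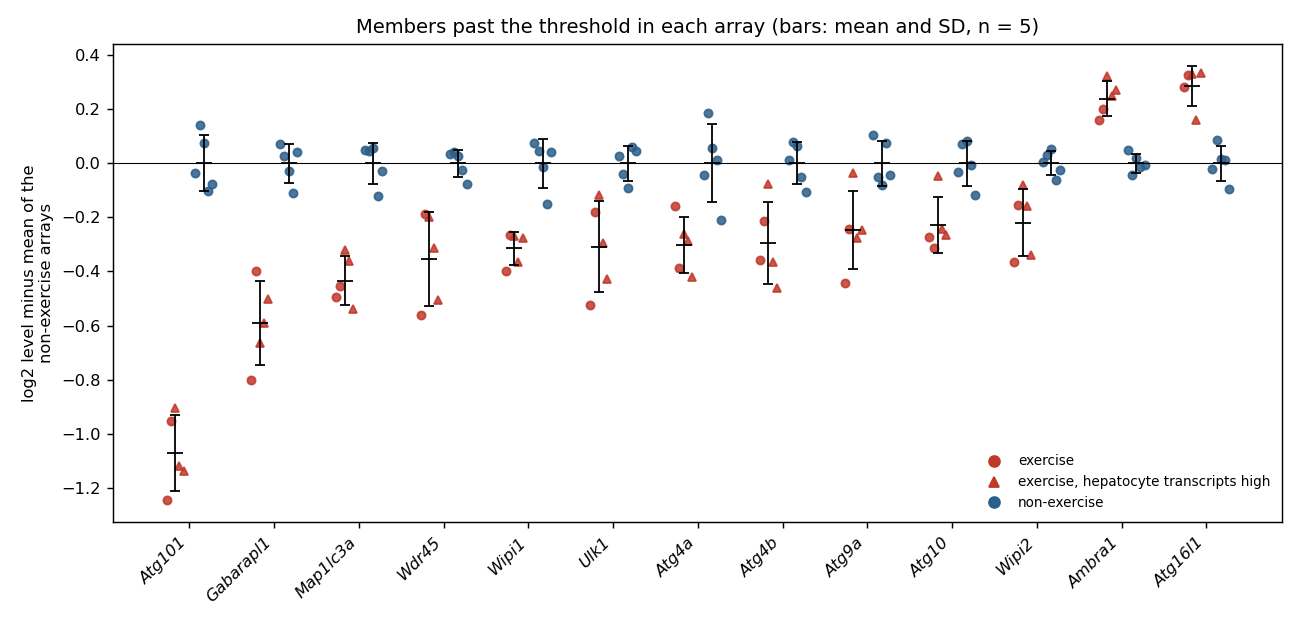
Log2 level minus the mean of the non-exercise arrays (y axis) for the 13 members past the threshold (x axis), 1 point an array, with triangles for the exercise arrays with hepatocyte transcripts and bars for mean and SD (n = 5 each). Atg101 lies farthest from 0, exercise array 306 reaches the non-exercise range for Atg9a, Atg4b and Atg10, array 300 reaches it for Atg4a, and Ambra1 and Atg16l1 lie above 0.

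**Figure D4:**
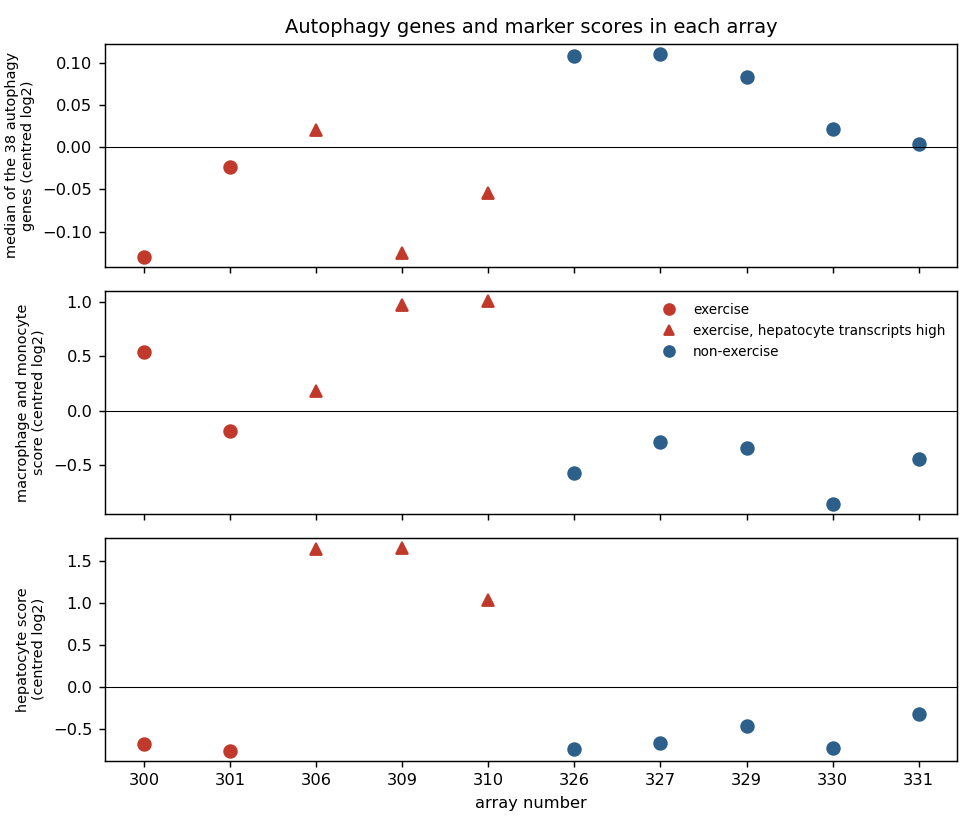
Median centred log2 level of the 38 members (top), macrophage and monocyte score (middle) and hepatocyte score (bottom) in each array (x axis, array number), exercise in red and non-exercise in blue. Arrays 300, 309 and 310 are the lowest in the top panel and the highest in the middle panel, and the 3 triangles mark the arrays with hepatocyte transcripts. The same arrays 300, 309 and 310 held the highest fibroblast, NK cell and endothelial scores, which are not drawn.

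Among regulators upstream of the ULK complex, 3 of 18 genes of mTORC1, its TSC brake and its lysosomal anchor rose and 5 fell, beside 6.35% and 10.6% of all genes. Mtor, the kinase, rose by 0.28 ± 0.05 (limma adjusted p = 0.00375) and its partner Rptor by 0.29 ± 0.05 (limma adjusted p = 0.00227), while Lamtor1, which anchors the complex to the lysosome, fell by 0.30 ± 0.06 on the log2 scale (limma adjusted p = 0.00538). Without the 3 arrays with hepatocyte transcripts Mtor did not pass, and 1 gene was higher and 4 lower. Of 10 genes of AMPK and its kinase 2 rose and 2 fell, led by Stk11, which encodes LKB1, the kinase upstream of AMPK. Stk11 rose by 0.70 ± 0.06 (limma adjusted p = 2.55e-05), with all exercise arrays above all non-exercise arrays. Of the regulatory subunits, Prkag2 fell by 0.38 on the log2 scale and Prkab2 rose by 0.26, and neither passed without the 3 arrays, where 1 gene was higher and 0 lower. Both AMPK counts were 1 when array 306, 310, 326, 329 or 330 was left out, the higher count also without 301 or 327, and the lower also without 300, 309 or 331.

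Of 14 other core autophagy factors 4 fell (28.6%) and 1 rose (7.14%), beside 10.6% and 6.35% of all genes. A negative change was seen in 8 of 14 (57.1%), the same share as over all genes. Trp53inp1 and Trp53inp2, nuclear factors that also take part in autophagosome formation, fell by 0.51 ± 0.09 and by 0.45 ± 0.09 on the log2 scale (limma adjusted p = 0.00143 and 0.00412), and Vcp, the segregase p97, rose by 0.25 ± 0.05 (limma adjusted p = 0.00344). The count of lower genes was 2 without non-exercise array 327 and 2 without the 3 arrays with hepatocyte transcripts. Vcp did not pass after centring on the medians.

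A list of receptors for mitochondria and endoplasmic reticulum also held other genes, such as the kinase Pink1 and the aggregate scaffold Wdfy3. Of its 16 measured genes 6 fell (37.5%) and 1 rose (6.25%), beside 10.6% and 6.35% of all genes. The change was negative in 13 of 16 (81.2%), beside 57.1% of all genes. Ccpg1, a receptor for the endoplasmic reticulum, fell by 0.52 ± 0.07 on the log2 scale (limma adjusted p = 0.000304), and Pink1, the kinase that marks damaged mitochondria, by 0.40 ± 0.07 (limma adjusted p = 0.00180). Wdfy3, the scaffold ALFY for protein aggregates, rose by 0.32 ± 0.06 (limma adjusted p = 0.00213), a call that was lost with the mean of its probe sets. Leaving out exercise array 309 gave 2 higher genes. The count of lower genes was 3 without non-exercise array 326, 327 or 329, and 3 without the 3 arrays with hepatocyte transcripts.

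Of 15 genes for fusion of the autophagosome with the lysosome 2 fell (13.3%) and 1 rose (6.67%), beside 10.6% and 6.35% of all genes. A negative change was seen in 12 of 15 (80%), beside 57.1% of all genes, and most of these did not pass. The SNARE gene Ykt6 fell by 0.40 ± 0.06 on the log2 scale (limma adjusted p = 0.000467). The tethering gene Vps41 (-0.23) was not past the threshold without non-exercise array 326, 329 or 330, which left 1 lower gene, and the adaptor gene Plekhm1 (0.34) not when array 309, 310, 327 or 329 was left out, which left none higher. Of 17 genes of the TFEB relatives and the lysosome 1 rose and 1 fell (5.88% each). Gla, the lysosomal alpha-galactosidase, rose by 0.40 ± 0.05 (limma adjusted p = 0.000310). Tfe3, a relative of TFEB, fell by 0.25 ± 0.07 on the log2 scale (limma adjusted p = 0.0208), and did not pass without non-exercise array 326, 329 or 330. The higher count in that list was 2 without exercise array 301 or 306, and the lower count 0 without non-exercise array 326 or 330, 2 without array 310 or 331, and 3 without the 3 arrays with hepatocyte transcripts.

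**Figure D5:**
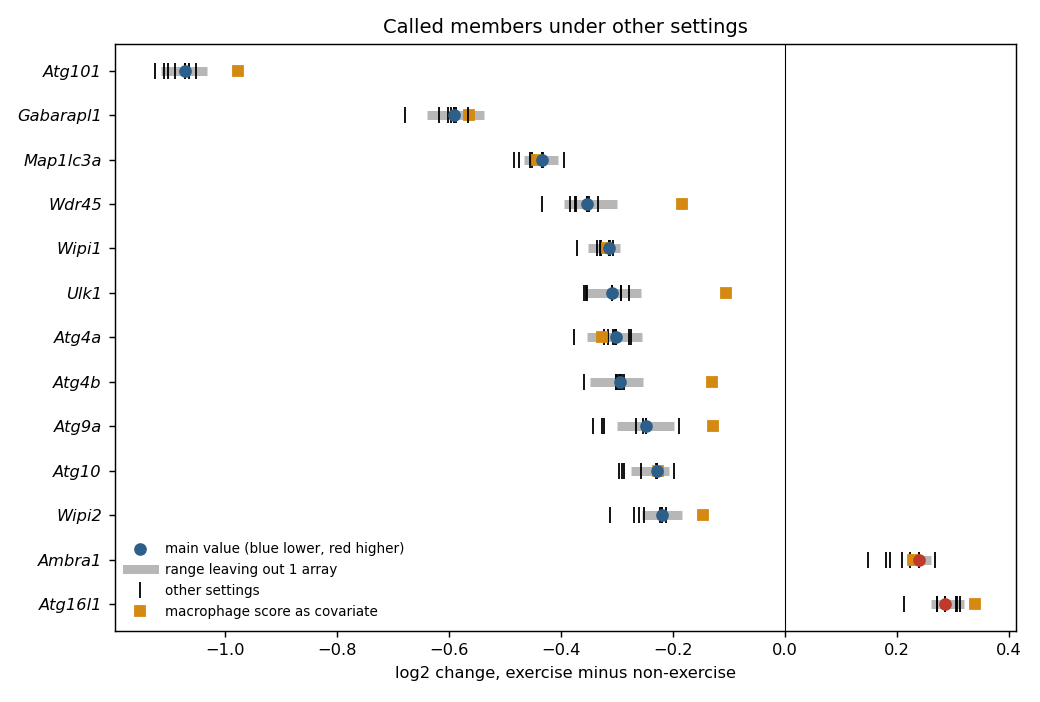
Log2 change (x axis, exercise minus non-exercise) of the 13 called members (y axis) in the full set (blue lower, red higher), with grey bars for the range leaving out 1 array, ticks for the other settings and orange squares for the macrophage score as covariate. No value crosses 0, and the squares lie nearer to 0 for Wdr45, Ulk1, Atg4b and Atg9a than for Gabarapl1, Map1lc3a and Wipi1.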

How the data were processed

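RNA of 10 mouse melanoma tumours (5 exercise, 5 non-exercise, grouped by the titles) was measured on 1 array each. The submitters' processing notes name PLIER, a method for summarising probe sets, with no version. The deposited values, between 4.66 and 14.5, were taken as log2 from their range, since no source names a log base or a normalization between arrays. RNA came from either of 2 kits, per the labels' protocols, without saying which tumour had which. Array medians differed by 0.126, over the limit of 0.1, so the table was quantile normalized (limma 3.58.1, R 4.3.3).

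The platform table gives 1 symbol for 21789 of 35556 probe sets and several for 1621, and leaves out 12146. Names were checked through Entrez identifiers against GRCm38.p6 (21698 matched, 0 changed). The probe set with the highest mean stood for each of 19938 genes, with no dim filter. The groups were compared per gene by limma (lmFit, eBayes with trend), two-sided, with Benjamini-Hochberg adjustment over all genes. Families were compared by exact permutation. On 5 simulated data sets of 19938 genes with 200 changed, 71.8% of changes of 0.5 and 96.8% of changes of 1 were recovered, with 9.2 false calls on average. The simulated noise was independent between genes, while these arrays varied in a shared way and 3384 genes were called. The simulated rates therefore do not carry over to these data. Smaller changes than 0.5 were not simulated, and among the called members only Atg101 and Gabarapl1 changed by more than that. The members and lists were chosen with earlier results of these data known. Values per array are given for called members and 8 fixed genes, and of other lists up to 3 called genes with the smallest p. Alternatives were the deposited table, median centring, the mean of probe sets, a dim filter, other variance models, array weights, a threshold of 0.10, marker covariates and leaving out arrays. Some genes of the other pathway lists are not reported here. No batch is given. Figures used Python 3.11.15 and matplotlib 3.10.9.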

Additional observations from a re-analysis of the deposited data

Results flagged for a closer look

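In each member and group of 5 arrays, the highest and the lowest array were set against the other 4 by Dixon's ratio of gap to range (critical value 0.71). Of 76 such groups 3 passed, where chance alone gives about 3.8. Ulk2 was low in exercise array 309, at 9.06 with the next array at 9.43. Uvrag was low in non-exercise array 329, at 10.71 with the next at 10.80, in a group whose whole range was narrow. Atg10 was high in exercise array 306, at 9.98 with the next at 9.78.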

How the results depend on the processing

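Of the 13 called members, all kept their direction under the 22 alternatives run. The count of higher members was 0 after median centring, beside 4.7% of all genes. It was 1 without the 3 exercise arrays with hepatocyte transcripts, beside 3.78%, and 1 with the hepatocyte score as covariate, beside 2.79%. With the macrophage score as covariate it was 0, beside 0.0602%, and leaving out 1 array it stayed at 2. The count of lower members was 1 with the macrophage score, beside 0.125% of all genes, and 7 to 13 leaving out 1 array, beside 7.2% to 11.7%. Genes and pairs that changed sign all had values that did not pass. With the macrophage score, Ulk2 was at 0.045, Atg13 at 0.064, Atg12 at -0.17, Gabarap at -0.039, Calcoco1 at 0.11 and Tax1bp1 at 0.0012. On the deposited table Pik3c3 was at 0.011 and Gabarap at -0.026, and with the melanocytic score Pik3c3 was at 0.031. After median centring Uvrag was at -0.060, Atg12 at -0.055, Gabarap at -0.086, Sqstm1 at -0.0028 and Tfeb at -0.060. Without the 3 arrays Uvrag was at -0.016, Gabarap at -0.018, Tfeb at -0.096, Atg4a minus Atg4b at 0.013, Atg4a minus Atg4d at 0.032 and Atg4b minus Atg4d at 0.019. With array weights Atg12 was at -0.056 and Gabarap at -0.034, and with the hepatocyte score Tfeb was at -0.092. Leaving out 1 array, the ranges were -0.10 to 0.0057 for Atg13, -0.021 to 0.16 for Rb1cc1, -0.088 to 0.0094 for Pik3c3, -0.012 to 0.059 for Uvrag, -0.052 to 0.038 for Atg12, -0.069 to 0.059 for Gabarap and -0.035 to 0.067 for Tfeb. For pairs they were -0.0092 to 0.068 for Wipi1 minus Wdr45, -0.059 to 0.036 for Atg4a minus Atg4b, -0.026 to 0.11 for Atg4c minus Atg4d and -0.024 to 0.077 for Map1lc3b minus Gabarapl2. Of the other lists, median centring gave 5 lower genes each for fusion and for the TFEB relatives and lysosome, and with the macrophage score only Stk11 and Ccpg1 passed among their genes. The cause of these changes was not tested. The pairs within families were chosen after seeing the data. No paired analysis was possible because the 2 groups share no numbers in the titles. The number of arrays limits the precision.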
